A study of Mus musculus with 4 samples.

Results

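Cardiac fibroblasts were described in the non-cardiomyocyte (NCM) fraction of mouse hearts, in which RNA was sequenced from single wells of a chip. A well was taken as a fibroblast well when it held at least 10000 UMIs (unique molecular identifiers, each marking 1 captured RNA molecule) and 300 genes, and when 11 fibroblast genes met a share. Those genes, Dcn, Col1a1, Col1a2, Col3a1, Pdgfra, Lum, Gsn, Dpt, Mfap5, Tcf21 and Pcolce, had to take together at least 2% of the UMIs outside mitochondrial and haemoglobin genes, with at least 4 of them detected. The rule gave 525 fibroblast wells among 2857 kept NCM wells, of 3990 kept wells in the whole series. The members were thus chosen by the measured UMI counts of these 11 genes, and the levels of those genes are given as a description only, with no test.

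The hearts came from C57BL/6 mice, 2 wild-type animals (WT1 and WT2) and 2 Mst1/2-deficient animals (KO1 and KO2). Cardiomyocytes and other cells were separated by low-speed centrifugation, and the NCM wells of both WT animals lay on 1 chip and those of both KO animals on another. Genotype and chip therefore cannot be told apart. The labels do not give the allele, the promoter or cell type of the deletion, the age of the animals or any treatment, and the title of the series names myocardial infarction without saying whether these hearts were infarcted. The animal was the replicate (n = 2 per genotype), and the wells of 1 animal were summed before any test.

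Cardiac fibroblasts are the main cells that make and remodel the collagen matrix of the heart. They secrete fibrillar collagens and small proteoglycans, crosslink them with lysyl oxidases, and turn into contractile, matrix-producing cells when TGF-beta signalling or tissue tension is high. Mst1 and Mst2, encoded by Stk4 and Stk3, are the core kinases of the Hippo pathway: they act through Lats kinases to keep the coactivators YAP and TAZ out of the nucleus, where these would otherwise bind TEAD factors and switch on genes such as Ccn2, Ccn1 and Ankrd1.

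The fibroblast wells numbered 139 in WT1, 137 in WT2, 120 in KO1 and 129 in KO2. Their median depth was 142724, 112049, 82412 and 127721 UMIs, and their median number of genes was 3525, 2791, 2267.5 and 3032, in the same order. Summed per animal they held 28625370, 23342272, 7154155 and 14210422 UMIs outside mitochondrial and haemoglobin genes. Mitochondrial genes took 5.76 and 8.97% of the UMIs of fibroblast wells in the WT animals and 45.4 and 30.1% in KO1 and KO2. The same split was seen in the other NCM wells, with 8.29 and 11.9% against 61.1 and 38.3%. Haemoglobin genes took 0.906, 2.65, 1.62 and 8.55% of the UMIs of fibroblast wells in WT1, WT2, KO1 and KO2. The part of the mitochondrial and haemoglobin load in the results below was not tested. All 400 barcodes found on both NCM chips stood in the same chip row on each, since a barcode marks a well position, and 17 of them were fibroblast wells on both.

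Fibroblast wells made up 20.1% of the kept NCM wells of WT1 (exact Clopper-Pearson 95% interval 17.2 to 23.3%) and 19.5% of WT2 (16.6 to 22.6%). They made up 16.8% of KO1 (14.1 to 19.7%) and 17.3% of KO2 (14.6 to 20.2%). The intervals cover counting error only. Both KO animals lay below both WT animals, by 2.76 percentage points on average, but an exact two-sided permutation test over 2 against 2 animals gave p = 0.333, the smallest it allows. The order depended on which wells were counted. With a share of at least 5%, 7.66 and 5.69% of WT wells and 3.08 and 1.20% of KO wells met the rule. With at least 1% the shares were 35.1 and 32.4% in the WT animals and 28.3 and 41.2% in KO1 and KO2, which overlap. Among wells under 30% mitochondrial UMIs the KO shares were above the WT shares, at 44.4 and 31.3% against 20.5 and 21.6%, but only 18 and 160 KO wells were left. Among wells under 1% haemoglobin UMIs they were 20.2 and 19.8% in WT and 18 and 30% in KO.

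**Figure D1:**
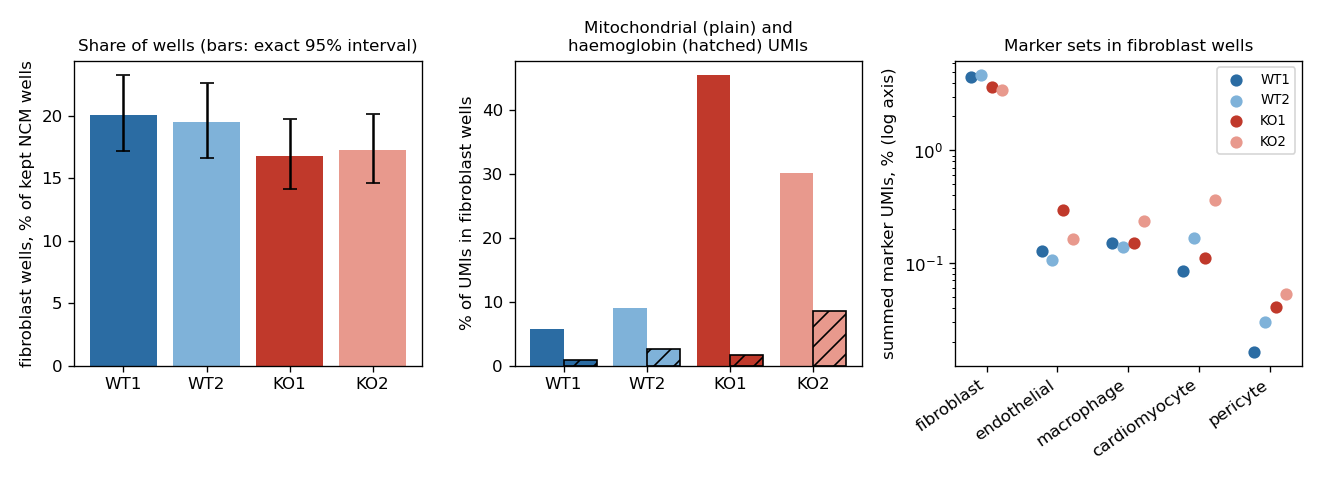
Fibroblast wells as a percentage of kept NCM wells for each animal with exact 95% intervals (left), mitochondrial and haemoglobin UMIs as a percentage of all UMIs in fibroblast wells (middle), and summed markers of 5 cell types as a percentage of UMIs outside mitochondrial and haemoglobin genes on a log axis (right). The KO animals hold 45.4 and 30.1% mitochondrial UMIs against 5.76 and 8.97% in WT, and the fibroblast markers lie far above the other sets in all 4 animals.

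The label was checked against the markers of 11 other cell types. Fibroblast markers summed to 4.48 (WT1), 4.72 (WT2), 3.65 (KO1) and 3.44 (KO2), in percent of UMIs outside mitochondrial and haemoglobin genes. These are the 11 genes of the rule, which set a floor of 2% in each well, so their sums are no check of the label. The 11 endothelial markers summed to 0.127 (WT1), 0.107 (WT2), 0.296 (KO1) and 0.163 (KO2), so both KO animals lay above both WT animals. The 10 macrophage markers summed to 0.151 (WT1), 0.139 (WT2), 0.150 (KO1) and 0.234 (KO2), and the 11 cardiomyocyte markers to 0.0840 (WT1), 0.167 (WT2), 0.112 (KO1) and 0.360 (KO2). The sums of both sets overlap between genotypes, but their shares in the median well were higher in both KO animals. The median well held 0.145 (WT1), 0.0892 (WT2), 0.164 (KO1) and 0.173 (KO2) percent macrophage markers. For cardiomyocyte markers it held 0.0317 (WT1), 0.0693 (WT2), 0.102 (KO1) and 0.319 (KO2) percent. The 7 pericyte markers, higher in both KO animals, summed to 0.0163 (WT1), 0.0301 (WT2), 0.0403 (KO1) and 0.0533 (KO2). The median fibroblast well held none of the T or NK cell, B cell, mesothelial and Schwann cell markers in any animal. Macrophage markers exceeded fibroblast markers in 2 WT1 and 2 WT2 wells and cardiomyocyte markers in 1 WT1 well, and endothelial and pericyte markers did so in 0 wells. Haemoglobin genes were the exception: the erythroid set, taken relative to the same total, exceeded the fibroblast set in 1, 4, 20 and 62 wells of WT1, WT2, KO1 and KO2. Of the summed endothelial, macrophage, cardiomyocyte and pericyte markers, at least 1 UMI of every marker was present in every animal's sum. Wells in which endothelial, macrophage, cardiomyocyte, pericyte and neutrophil markers together stayed under 0.5% numbered 82, 79, 31 and 28 in WT1, WT2, KO1 and KO2, and values from them are given below as "low-marker wells". They are a subset of the same wells, chosen after the data were seen.

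The class had no sharp edge. The median share of the 11 genes was 4.46, 4.14, 3.27 and 3.26% in fibroblast wells of WT1, WT2, KO1 and KO2, against 0.439, 0.347, 0.424 and 0.764% in the other NCM wells. Of the members, 33 wells lay between 2 and 2.2%, the lowest at 2.01%, while 40 wells lay just outside, between 1.8 and 2%. In the wider tail, 456 NCM wells held between 1 and 2%, and 124 members held at least 5%. No well (0) met the share with fewer than 4 of the genes detected.

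Wells varied widely in which of the 11 genes they held. Levels are given as CPM, the UMIs of a gene scaled to a fixed total of UMIs outside mitochondrial and haemoglobin genes. Dcn, the collagen-binding proteoglycan decorin, was present in nearly all members, with a median well at 11056 CPM in WT1 and 6364 in KO2. Its 10th and 90th percentile wells were at 3226 and 23873 in WT1 and at 1478 and 15815 in KO2. Mfap5, a microfibril protein, spread further, from 53.5 to 9541 between the same percentiles of KO1. Pdgfra, the receptor that marks the fibroblast lineage, was detected in 71.9, 71.5, 48.3 and 54.3% of members of WT1, WT2, KO1 and KO2, and the transcription factor Tcf21 in 56.8, 48.9, 29.2 and 40.3%. Wells differ in depth, so each was also thinned to 10000 UMIs outside mitochondrial and haemoglobin genes, which left out 2, 4, 7 and 4 members. Pdgfra was then found in percent of wells at 41.6 (WT1), 47.4 (WT2), 38.9 (KO1) and 38.4 (KO2), which lie close together, against 4.26% of the thinned macrophage-marker wells. For Dcn the macrophage-marker wells, which should lack it, reached 79.8% after thinning and 98.4% before, at a median depth of 122055 UMIs.

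The members were also described against the other 2332 NCM wells. All values of this description are plain CPM with no further scaling, summed over wells of 1 genotype, and no test was made because the rule chose the wells. The 30 leading genes, ranked by the lower of the WT and KO folds among 4842 genes at 20 CPM or more in both genotypes, had lower folds from 6.55 to 15.8, and 3 of the 30 (Mfap5, Dpt and Pdgfra) were rule genes. Of the 30, 7 stand in one of the gene or marker lists used here other than the fibroblast markers. Ssc5d, a secreted scavenger-receptor protein, led with 29.9 against 1.89 in WT and 82.3 against 4.42 in KO. Cilp, a matrix protein known from cartilage and from cardiac fibroblasts, was at 322 against 22.8 in WT and 481 against 40.3 in KO. Mmp2, the gelatinase that cuts collagen fragments, was at 623 against 59.5 in WT and 452 against 55.4 in KO, and Spon2, a secreted matrix protein, at 191 against 14.8 in WT and 74.5 against 6.68 in KO. These genes were low in the other NCM wells of both genotypes.

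Among further leading genes, Prelp, a proteoglycan that anchors basement membrane, had folds of 7.54 and 8.73 in WT and KO, and Apod, a lipid carrier, was at 184 against 21.5 in WT and 183 against 23.2 in KO. Complement component C7 was at 187 against 6.80 in WT and 83.9 against 11.8 in KO. Scara5, a ferritin receptor, was at 103 against 4.85 in WT and 56.6 against 8.39 in KO. Pdgfrl, Boc, Sema3c and Tshz3 were also among the 30, while Entpd2, an ectonucleotidase, was at 152 against 17.9 in WT and 84.4 against 12.9 in KO. Macrophage-marker wells held 8.84 and 1.28 plain CPM of Entpd2 and endothelial-marker wells 3.01 and 27.2 in WT and KO. Some leading genes sat in few wells: Chrna1os was found in 5.14% of members and C7 in 23.6%, while Mmp2 was found in 80.6%. Of the rule genes, Pdgfra was at 198 against 29.8 in WT and 168 against 21.9 in KO, Lum at 2196 against 156 in WT and 1047 against 223 in KO, and Col1a1 at 1024 against 206 in WT and 1593 against 394 in KO, with the collagen at the lowest folds of these 3. Chrna1os is annotated as an antisense transcript, and with the strand setting not given in the sources used here its UMIs cannot be told from those of its partner gene.

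**Figure D2:**
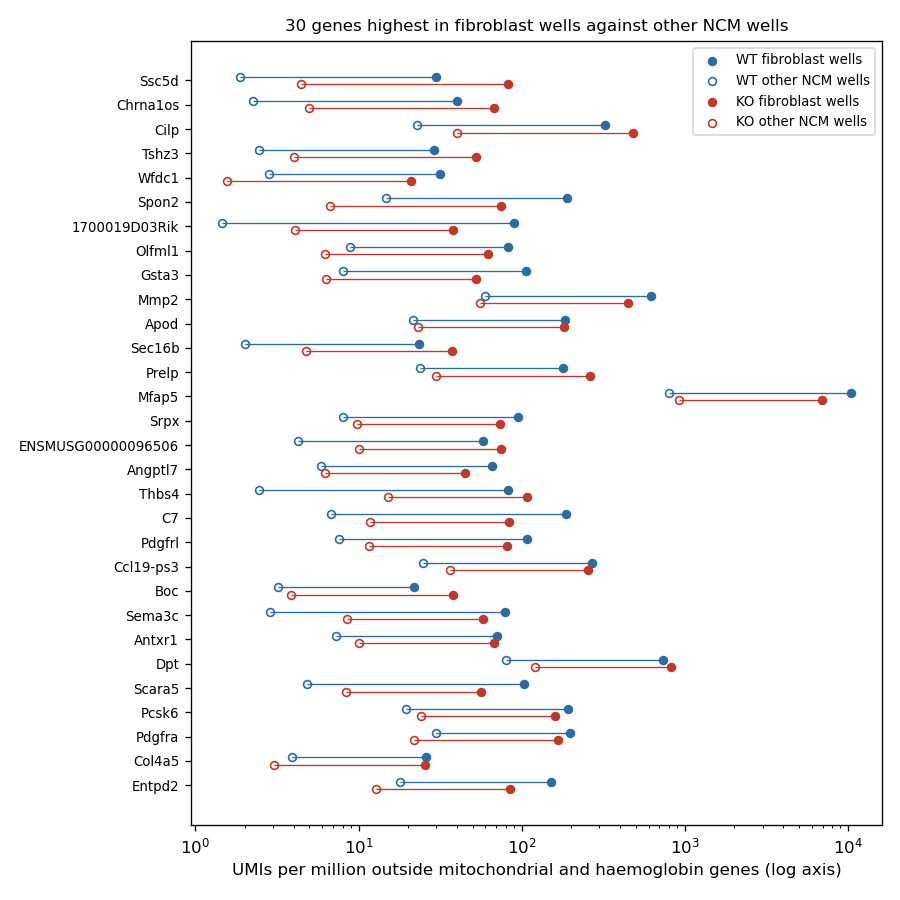
The 30 genes with the highest fold of fibroblast wells over other NCM wells, in plain CPM outside mitochondrial and haemoglobin genes on a log axis; filled points are fibroblast wells and open points other NCM wells, blue for WT and red for KO. Every filled point lies to the right of its open point because the genes were ranked by this fold. The lower folds run from 6.55 to 15.8, and Mfap5 is the most abundant of the 30.

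For genotype, the UMIs of each animal's fibroblast wells were scaled with TMM factors (0.959, 0.909, 1.132 and 1.013 for WT1, WT2, KO1 and KO2) and are given as TMM-scaled CPM. No gene passed: edgeR's quasi-likelihood test called 0 of 13922 genes at a Benjamini-Hochberg adjusted p under 0.05 (0% of those tested), with a smallest adjusted p of 0.464. At an unadjusted p under 0.05 there were 604 genes higher (4.34%) and 712 lower (5.11%) in KO. DESeq2 called 224 higher (1.74%) and 144 lower (1.12%), and edgeR with no filter on low counts called 144 higher and 123 lower of 22134 genes. Scaling by library totals shifted the median of all genes from -0.01 to 0.19 on the log2 scale and the split at unadjusted p under 0.05 to 868 higher and 476 lower, and weighting wells equally gave 863 and 411. The low-marker wells gave 0 calls by edgeR and 989 genes at that unadjusted p. Wells under 1% haemoglobin UMIs gave 0 calls and 1085 such genes. Both KO animals lay above both WT animals in 19.5% of the genes tested and below them in 21.6%, and counts in gene lists below are read against these shares. All values from here on are therefore given as levels and log2 differences (KO minus WT, ± SE from edgeR), not as called changes, and the adjusted p was 0.464 or more for each of them.

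Stk4 and Stk3, the genes named in the genotype, were not absent in KO wells. Stk4 was at 34.6 (WT1), 27.7 (WT2), 32.8 (KO1) and 19.9 (KO2) CPM, a log2 difference of -0.24 ± 0.59, and Stk3 at 41.04 (WT1), 67.5 (WT2), 19.5 (KO1) and 46.3 (KO2), a difference of -0.72 ± 0.61. The groups of both genes overlap, and the sign of the Stk4 difference turned with equal weights (0.22) and without KO2 (0.048). The labels do not say which exons or cells the deletion affects, so UMIs outside a deleted part would check nothing.

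Among the rule genes, given with no test, the small leucine-rich proteoglycans Dcn and Lum lay lower in both KO animals and the fibrillar collagens overlapped. Dcn was at 11938 (WT1), 19378 (WT2), 7852 (KO1) and 6176 (KO2) CPM. Lum, the proteoglycan lumican, which spaces collagen fibrils, was at 2325 (WT1), 2369.5 (WT2), 919 (KO1) and 1038 (KO2). Mfap5 was at 12050 (WT1), 9861 (WT2), 3521 (KO1) and 8308 (KO2). Both KO animals lay below both WT animals in these 3 genes and in Tcf21 and Pcolce, 5 of the 11. The share over all genes tested was 21.6%, but these 11 genes chose the wells, so nothing is read from the count. Without TMM scaling Pcolce overlapped, at 749.6 plain CPM in WT2 and 751.3 in KO2. Tcf21 was then at 55.2 in WT1 and 54.2 in KO1. Col3a1, by contrast, was at 8379 (WT1), 4151 (WT2), 8237 (KO1) and 7344 (KO2), Col1a2 at 3977 (WT1), 2238 (WT2), 3608 (KO1) and 4615 (KO2) and Col1a1 at 1342 (WT1), 771 (WT2), 983 (KO1) and 1811 (KO2), all with overlapping groups.

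In the list of 34 structural matrix genes, 9 were higher and 9 lower in both KO animals, and the list median was -0.11 beside -0.01 over all genes. Fn1, fibronectin, had a log2 difference of 0.77 ± 0.34, with WT1 nearest to the KO animals. Emilin1, an elastic fibre glycoprotein, was at 165 (WT1), 129.8 (WT2), 306 (KO1) and 278 (KO2) (0.99 ± 0.30), and the short-chain collagen gene Col8a1 at 433 (WT1), 374 (WT2), 588 (KO1) and 1066 (KO2) (1.04 ± 0.34). On the lower side, Ogn, the proteoglycan osteoglycin, was at 894 (WT1), 1068 (WT2), 489 (KO1) and 488 (KO2) (-1.01 ± 0.24). Mfap4, a microfibril-associated protein, was at 737 (WT1), 384 (WT2), 241 (KO1) and 296 (KO2) (-1.06 ± 0.37). The most abundant member, Mgp, an inhibitor of calcification, was lower in both, at 6405 (WT1), 8452 (WT2), 5706 (KO1) and 5960.3 (KO2), and Fbln2 overlapped at 837 and 713 against 812 and 755. The list thus held as many members on one side as on the other, beside the background of 19.5 and 21.6%. Its median changed sign under 5 alternatives, from 0.06 with library totals to 0.26 without WT1.

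Of 24 genes for collagen processing, 6 were higher and 2 lower in both KO animals, beside the background of 19.5 and 21.6%, with a list median of 0.33. That median was -0.02 with a marker share of at least 1%. The 4 with the lowest unadjusted p, picked from these same data, were all enzymes or a chaperone of collagen maturation, and all were higher in both KO animals. Lox, the lysyl oxidase that crosslinks collagen and elastin, was at 246 (WT1), 127 (WT2), 353 (KO1) and 676 (KO2) CPM (1.46 ± 0.45), and Loxl2, a related crosslinking enzyme, at 169.5 (WT1), 99.1 (WT2), 289 (KO1) and 345 (KO2) (1.24 ± 0.36). Plod2, which hydroxylates collagen telopeptide lysines before crosslinking, was at 31.3 (WT1), 20.6 (WT2), 89.4 (KO1) and 120.3 (KO2) (2.01 ± 0.47), and Serpinh1, the collagen chaperone Hsp47, at 280.4 (WT1), 179 (WT2), 372 (KO1) and 481 (KO2) (0.89 ± 0.33). The highest WT value lay below the lowest KO value for each of the 4. In low-marker wells the differences were 2.09, 1.57, 2.42 and 1.18 for Lox, Loxl2, Plod2 and Serpinh1. Timp1, an inhibitor of matrix metalloproteinases, was at 2103 (WT1), 1457 (WT2), 2737 (KO1) and 2259 (KO2) (0.49 ± 0.25), and Mmp2 at 594 (WT1), 757 (WT2), 497 (KO1) and 391 (KO2) (-0.60 ± 0.27). Loxl1, at 465 and 371 against 455 and 848, overlapped.

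Matricellular genes encode secreted proteins that signal from the matrix. Of 19 tested, 7 were higher and 2 lower in both KO animals, and the median was -0.02, which turned to 0.17 with library totals and to 0.35 with equal weights. Spp1, osteopontin, was at 354 (WT1), 419.97 (WT2), 929.6 (KO1) and 1006 (KO2) CPM (1.32 ± 0.24), and Ccn2, connective tissue growth factor, at 182 (WT1), 218 (WT2), 409.6 (KO1) and 538 (KO2) (1.24 ± 0.29). Postn, periostin, a marker of activated fibroblasts, was at 1716 (WT1), 749.7 (WT2), 1809 (KO1) and 2121 (KO2) (0.67 ± 0.39), with WT1 close to the KO animals and WT2 lowest. Tnc, tenascin C, was at 116 (WT1), 84.9 (WT2), 146 (KO1) and 213 (KO2) (0.84 ± 0.38). Sparc and Fstl1, the most abundant members, overlapped, the first at 7279.6 and 4763 against 5237 and 5844, the second at 3489 and 2361 against 2664 and 3118. Spp1 is also abundant in macrophages: macrophage-marker wells held 2907 and 8710.3 plain CPM in WT and KO. Macrophage markers in the fibroblast sums were 0.151 (WT1), 0.139 (WT2), 0.150 (KO1) and 0.234 (KO2) percent, and their part in the Spp1 difference was not tested; in low-marker wells it was 1.18. Comp, a cartilage matrix protein, had the largest difference of the list, 3.75 (0.82 in low-marker wells), but 1 well held 97.3% of its UMIs in WT2 and 70.4% in KO2.

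Contractile genes that mark myofibroblasts lay on both sides, with 3 higher and 2 lower in both KO animals among 14 and a median of 0.13. Acta2, smooth muscle actin, the usual myofibroblast marker, was at 744 (WT1), 434 (WT2), 385 (KO1) and 526 (KO2) CPM and overlapped. Cald1, caldesmon, was at 1292 (WT1), 1294 (WT2), 853 (KO1) and 896 (KO2) (-0.56 ± 0.21), Flna, filamin A, at 197 (WT1), 149.6 (WT2), 238 (KO1) and 335 (KO2) (0.73 ± 0.33) and the actin crosslinker Actn1 at 42.6 (WT1), 22.4 (WT2), 57.3 (KO1) and 166 (KO2) (1.78 ± 0.64). Cald1 was low and Flna and Actn1 high in KO, so the list held both directions.

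**Figure D3:**
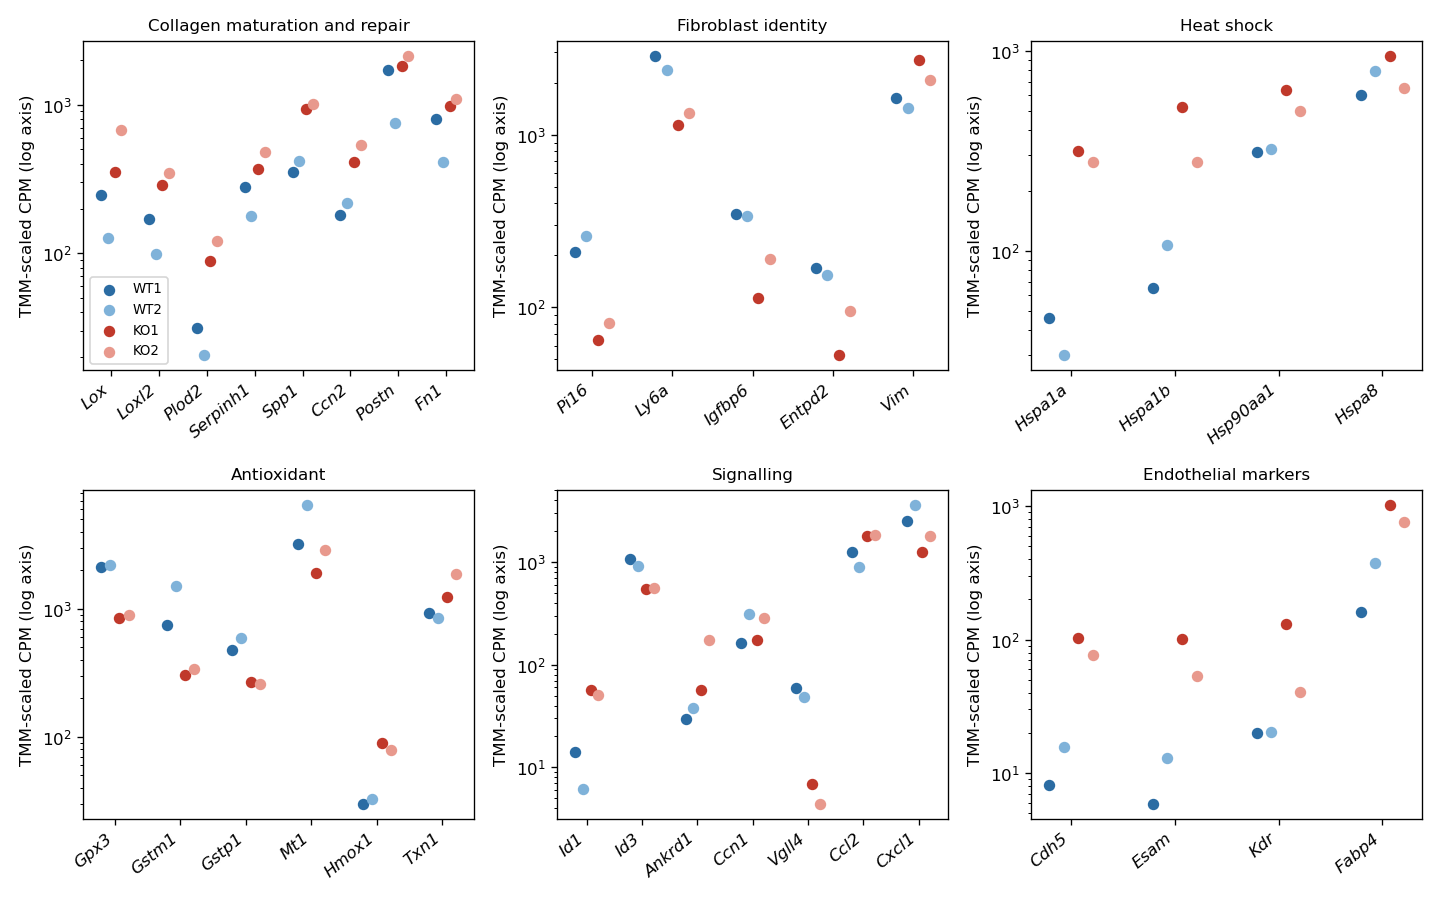
TMM-scaled CPM on a log axis in the summed fibroblast wells of each animal (blue WT1 and WT2, red KO1 and KO2) for genes of 6 groups. Lox, Loxl2, Plod2, Serpinh1 and Spp1 lie higher in both KO animals, Pi16, Ly6a, Igfbp6 and Entpd2 lower, and Hspa8 and Ccn1 overlap.

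Of 26 identity and subset genes, 17 had a negative and 9 a positive log2 difference, with a median of -0.44. Those without overlap were nearly balanced, with 9 lower and 8 higher in both KO animals. Pi16, a peptidase inhibitor that marks adventitial-type fibroblasts, was at 209.8 (WT1), 259 (WT2), 64.6 (KO1) and 81.4 (KO2) CPM (-1.68 ± 0.34), and Ly6a, the surface antigen Sca-1 of progenitor-like fibroblasts, at 2854 (WT1), 2371 (WT2), 1132 (KO1) and 1329.5 (KO2) (-1.09 ± 0.22). Igfbp6, an IGF-binding protein of the same fibroblast subset, was at 347 (WT1), 337 (WT2), 114 (KO1) and 190.1 (KO2) (-1.17 ± 0.35). Entpd2 was at 169.7 (WT1), 154 (WT2), 52.7 (KO1) and 95.6 (KO2) (-1.12 ± 0.41). In each of these 4 the KO animals lay below both WT animals. On the higher side, Vim, the intermediate filament vimentin, was at 1626 (WT1), 1433 (WT2), 2699 (KO1) and 2065 (KO2) (0.64 ± 0.23). Igfbp3, an IGF-binding protein, was at 6.26 and 34.4 against 126 and 42.04 (2.05), Meox1, a transcription factor of activated fibroblasts, at 43.1 and 16.03 against 76.2 and 55.7 (1.16), and the collagen receptor gene Ddr2 at 84.4 and 79.5 against 111 and 143 (0.63, -0.04 in low-marker wells). Wif1, a secreted Wnt inhibitor, was at 2.22 and 2.64 against 87.1 and 5.63 (4.25), with 1 well holding 46.5% of its KO1 UMIs, and its difference was 0.13 in low-marker wells. The share of wells with Pi16 lay closer together than its level: after thinning it was found in percent of wells at 44.5 (WT1), 42.1 (WT2), 38.9 (KO1) and 39.2 (KO2), against 19.1% of macrophage-marker wells. For Entpd2 the thinned shares were 50.4 (WT1), 38.3 (WT2), 17.7 (KO1) and 25.6 (KO2), with 2.13% in macrophage-marker wells. Ly6a is abundant in endothelial cells, at 6001 and 3289 plain CPM in the endothelial-marker wells of WT and KO. In low-marker wells the differences of Pi16, Ly6a, Igfbp6 and Entpd2 were -1.29, -1.005, -0.42 and -0.68.

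TGF-beta and BMP signalling drives fibroblast activation through Smad proteins. Of 30 tested genes, 9 were higher and 5 lower in both KO animals (median 0.43). Bmpr1a, a BMP type I receptor, was at 9.58 (WT1), 8.72 (WT2), 45.9 (KO1) and 41.6 (KO2) CPM (2.26 ± 0.60). Id1, a BMP target, was at 14.1 (WT1), 6.17 (WT2), 56.04 (KO1) and 50.8 (KO2) (2.39 ± 0.65), whereas its relative Id3 was lower, at 1069 (WT1), 922 (WT2), 549 (KO1) and 556 (KO2) (-0.85 ± 0.23). Id1 is also an endothelial gene, at 452 and 236 plain CPM in endothelial-marker wells of WT and KO. The 11 endothelial markers in the fibroblast sums were 0.127 (WT1), 0.107 (WT2), 0.296 (KO1) and 0.163 (KO2) percent. Their part in the Id1 difference was not tested; it was 2.25 in low-marker wells.

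Of 16 tested Hippo pathway genes, 8 were higher and 2 lower in both KO animals, a share of 8 in 16 beside the background of 19.5%. The median was 0.60, and it was 0.57 in the other NCM wells. Wwtr1, which encodes TAZ, was at 65.00 (WT1), 65.7 (WT2), 94.4 (KO1) and 123 (KO2) CPM (0.74 ± 0.39), and Tead1, a DNA-binding partner of YAP and TAZ, at 36.9 (WT1), 25.9 (WT2), 76.2 (KO1) and 50.2 (KO2) (1.01 ± 0.50). Vgll4, which competes with YAP for TEAD factors, was lower, at 59.9 (WT1), 48.1 (WT2), 6.91 (KO1) and 4.38 (KO2) (-3.26 ± 0.63), and Vgll3, another TEAD cofactor, higher, at 6.34 (WT1), 6.65 (WT2), 28.02 (KO1) and 38.8 (KO2) (2.36 ± 0.69). Both were found in few wells. Without thinning to equal depth, Vgll4 was detected in 17.99 and 13.9% of WT1 and WT2 wells and 13.3 and 11.6% of KO1 and KO2 wells. For Vgll3, 1 well held 85.1% of the UMIs of WT2 and 1 held 55.5% of those of KO2. With wells weighted equally the Vgll4 difference was -1.33. Nf2, an upstream activator of the pathway, was at 6.41 and 6.60 against 20.5 and 20.4 (1.65, -0.30 in wells under 30% mitochondrial UMIs), and the kinase gene Map4k4 at 47.8 and 73.8 against 177 and 78.03 (1.07).

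Of 23 YAP and TAZ target genes, 9 were higher and 1 was lower in both KO animals. The median was 0.37, and it was 0.56 in the other NCM wells. Ankrd1, a stress-induced nuclear and sarcomere protein and a target of YAP, was at 29.3 (WT1), 37.9 (WT2), 56.04 (KO1) and 174 (KO2) CPM (1.78 ± 0.61). Ccn2 was higher as given above, but Ccn1, its close relative, overlapped at 162 (WT1), 315 (WT2), 172 (KO1) and 282 (KO2). Axl, a receptor tyrosine kinase, was slightly higher in both, at 326 (WT1), 315 (WT2), 414 (KO1) and 362 (KO2). Ankrd1 is abundant in cardiomyocytes, whose markers in the fibroblast sums were 0.0840 (WT1), 0.167 (WT2), 0.112 (KO1) and 0.360 (KO2) percent. Their part in the Ankrd1 difference was not tested, and it was 3.54 in low-marker wells. The upstream sequences of Ankrd1 and Ccn1 are shown because the 2 targets differed in level while both hold the letters that TEAD factors bind. They are the 250 bases before the gene start, from RefSeq (GRCm38.p6), on the minus strand, chr19:36119845-36120094 for Ankrd1 and chr3:145649986-145650235 for Ccn1, with GGAATG or its reverse complement CATTCC in capitals.
Ankrd1: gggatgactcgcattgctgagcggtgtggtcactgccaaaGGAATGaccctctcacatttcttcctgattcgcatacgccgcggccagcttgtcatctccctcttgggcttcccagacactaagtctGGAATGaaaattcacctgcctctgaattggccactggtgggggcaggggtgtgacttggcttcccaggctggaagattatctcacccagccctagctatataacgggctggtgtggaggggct
Ccn1: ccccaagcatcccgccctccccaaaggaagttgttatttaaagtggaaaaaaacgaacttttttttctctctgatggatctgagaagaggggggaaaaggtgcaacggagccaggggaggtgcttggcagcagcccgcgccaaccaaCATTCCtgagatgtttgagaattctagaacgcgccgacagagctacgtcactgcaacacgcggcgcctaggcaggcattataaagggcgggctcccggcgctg
Ankrd1 holds 2 matches, whose first bases lie 210 and 123 bases before the start, and Ccn1 holds 1, at 103 bases. The GENCODE gene model of Ankrd1 begins further upstream than the RefSeq start. Of the 17 target genes with an upstream sequence in the table, 7 hold a match, while 12.6% of all 32851 upstream sequences of this length do; a match is a description of the letters only. The table had no entry for Ccn2.

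Heat shock chaperones lay on both sides. Of 14, 4 were higher and 3 lower in both KO animals, with a median of 0.12. The inducible Hsp70 gene Hspa1a was at 46.3 (WT1), 30.1 (WT2), 315 (KO1) and 278 (KO2) CPM (2.96 ± 0.38, unadjusted p = 0.00014 with edgeR). Its neighbour Hspa1b was at 65.2 (WT1), 107 (WT2), 523 (KO1) and 277 (KO2) (2.21 ± 0.44). Hsp90aa1, the inducible Hsp90, was at 312 (WT1), 324 (WT2), 639 (KO1) and 502 (KO2) (0.84 ± 0.26). Bag3, a co-chaperone, was the other gene higher in both, at 29.3 and 47.4 against 119 and 55.2 (1.18). The inducible genes Hsph1, Dnajb1, Hspb1, Dnaja1 and Cryab overlapped, with Dnajb1 at 124 and 199 against 256 and 163. The constitutive Hspa8 overlapped at 601 and 789 against 939 and 649, while Hsp90ab1, at 1832 and 2068 against 1417 and 1579, and the endoplasmic reticulum chaperone Hspa5, at 1835 and 1769 against 1513 and 1638, were slightly lower in both KO animals. More wells held Hspa1a in KO, as thinned shares were 20.4 (WT1), 15.8 (WT2), 67.3 (KO1) and 44.8 (KO2) percent. Macrophage-marker wells stood at 31.4% and endothelial-marker wells at 41.7%, both above the WT fibroblast shares. In the other NCM wells the KO minus WT difference of Hspa1a was 1.36. Hspa1a and Hspa1b code for nearly the same protein, so how reads were split between them is uncertain. Their upstream sequences from RefSeq (GRCm38.p6, minus strand, chr17:34972157-34972406 for Hspa1a and chr17:34959239-34959488 for Hspa1b) are shown because they are as alike as the genes, with the heat shock element letters GAANNTTC in capitals.
Hspa1a: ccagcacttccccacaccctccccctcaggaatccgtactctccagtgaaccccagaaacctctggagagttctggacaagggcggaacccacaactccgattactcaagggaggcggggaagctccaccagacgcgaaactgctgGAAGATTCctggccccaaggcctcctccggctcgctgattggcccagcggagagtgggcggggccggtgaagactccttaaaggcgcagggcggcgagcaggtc
Hspa1b: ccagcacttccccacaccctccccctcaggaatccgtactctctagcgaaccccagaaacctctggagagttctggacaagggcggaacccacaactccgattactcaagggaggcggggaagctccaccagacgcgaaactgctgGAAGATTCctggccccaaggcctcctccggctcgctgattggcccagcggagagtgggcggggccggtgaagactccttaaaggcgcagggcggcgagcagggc
The 2 runs share 247 of 250 bases, and in both the match begins 104 bases before the start. GAANNTTC, or TTCNNGAA, which is the other repeat order and like the first its own reverse complement, occurs in 12.8% of all upstream sequences of this length and in 7 of the 10 heat shock genes with an entry.

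Antioxidant and metal-binding genes were mostly lower: 10 of 19 lay lower and 4 higher in both KO animals. The median was -0.63, the lowest of the 19 gene lists, and it was -0.49 in the other NCM wells. Gpx3, the secreted glutathione peroxidase, was at 2115 (WT1), 2203 (WT2), 848 (KO1) and 899 (KO2) CPM (-1.31 ± 0.21). The glutathione S-transferase genes Gstm1 and Gstp1 were at 748 (WT1), 1515 (WT2), 304 (KO1) and 339 (KO2) (-1.82 ± 0.37) and at 475 (WT1), 591 (WT2), 269.6 (KO1) and 259 (KO2) (-1.01 ± 0.27). The metallothionein genes Mt1 and Mt2 were at 3238 (WT1), 6483 (WT2), 1907 (KO1) and 2861 (KO2) (-1.03 ± 0.37) and at 772 (WT1), 1098 (WT2), 511 (KO1) and 572 (KO2) (-0.79 ± 0.27). Hmox1, haem oxygenase, which breaks down haem, was higher, at 29.7 (WT1), 32.5 (WT2), 89.2 (KO1) and 78.6 (KO2) (1.43 ± 0.43), as was Txn1, thioredoxin, at 931 (WT1), 852 (WT2), 1229 (KO1) and 1859 (KO2) (0.79 ± 0.27). For Gpx3, Gstm1, Gstp1, Mt1 and Mt2 every KO value lay below every WT value. Gstm1 belongs to a family of near-identical genes, so its count is uncertain. Gstm1 was detected in 90.6 and 90.5% of WT1 and WT2 wells and 53.3 and 58.1% of KO1 and KO2 wells. These shares were not thinned to equal depth. The median depth outside mitochondrial and haemoglobin genes was 135178 (WT1), 102166 (WT2), 40370 (KO1) and 75333 (KO2) UMIs, and its part was not tested. The mitochondrial share, 5.76 and 8.97% in WT and 45.4 and 30.1% in KO, moved with these genes, and its part was not tested. The median of the list stayed below 0 under every alternative run.

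Chemokine and cytokine genes were mixed, with 6 of 28 higher and 2 lower in both KO animals (median 0.13). Cxcl1, which attracts neutrophils, was at 2513 (WT1), 3587 (WT2), 1263 (KO1) and 1773 (KO2) CPM (-1.01 ± 0.27), and Ccl2, which attracts monocytes, at 1249 (WT1), 893 (WT2), 1790.3 (KO1) and 1818 (KO2) (0.75 ± 0.24), so these 2 lay in opposite directions. However, 1 well held 50.4% of the Ccl2 UMIs of KO1, so the KO1 level rests largely on that well. With wells weighted equally the Ccl2 difference was 0.64. Ccl7, a related attractant, was at 1414 (WT1), 1363 (WT2), 1438 (KO1) and 1609 (KO2), with the groups nearly touching. Cxcl2, a neutrophil attractant, was at 247 and 412 against 455 and 614 (0.70, -0.36 in wells under 30% mitochondrial UMIs). Macrophage-marker wells held more Ccl2 than fibroblast wells, 6129 and 5257 plain CPM in WT and KO. Of 14 complement genes, 7 were higher and 2 lower in both KO animals (median 0.53). Serping1, the C1 inhibitor, was at 2172 (WT1), 3015 (WT2), 1445 (KO1) and 1052 (KO2) (-1.05 ± 0.27), and Clu, clusterin, at 36.99 (WT1), 22.7 (WT2), 131 (KO1) and 72.2 (KO2) (1.76 ± 0.52), while C3 overlapped at 552 and 628 against 804 and 442. The Clu difference was 0.39 in wells under 30% mitochondrial UMIs. C4b was at 53.3 and 85.2 against 171 and 109 (1.01, -0.60 in low-marker wells), and C3ar1, the C3a receptor, at 15.3 and 5.37 against 23.1 and 48.7 (1.79, 0.83). C3ar1 was at 329 and 543 plain CPM in macrophage-marker wells of WT and KO, and the part of macrophage RNA was not tested.

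Of 19 interferon-stimulated genes, 4 were higher and 0 lower in both KO animals, and of 11 MHC class I genes 6 were higher and 1 was lower. The medians were 0.47 and 0.51. Irf7, the interferon regulatory factor, was at 4.77 (WT1), 2.07 (WT2), 18.6 (KO1) and 39.3 (KO2) CPM (3.08 ± 0.90), Ifit1 at 40.9 and 55.1 against 70.98 and 87.1 (0.72), and the abundant Ifitm3 overlapped at 5530.4 and 6130.4 against 3746 and 5775. H2-K1, a classical class I heavy chain, was at 198 (WT1), 232 (WT2), 408 (KO1) and 616 (KO2) (1.25 ± 0.31), and Tap1, a subunit of the peptide transporter, at 13.2 (WT1), 12.3 (WT2), 31.2 (KO1) and 97.9 (KO2) (2.34 ± 0.69). H2-Q4 was at 2.15 and 1.84 against 13.8 and 46.8 (3.92) and H2-M3 at 30.2 and 13.2 against 52.7 and 32.9 (0.98). B2m, the light chain of all class I molecules, overlapped at 1262 and 1421 against 1112 and 1371. H2 genes are alike in sequence, so reads may be split between them. Of 23 immediate early genes, 3 were higher and 2 lower (median -0.19, turning to 0.04 with library totals). Ier5 was at 49.4 (WT1), 60.2 (WT2), 198 (KO1) and 114 (KO2) (1.51 ± 0.43), a difference that was 0.11 in wells under 30% mitochondrial UMIs. Myc was lower in both, at 24.6 and 27.7 against 13.3 and 8.96 (-1.23), while Fos overlapped at 518 and 699 against 782 and 652, and Egr1 at 467 and 986 against 755 and 520.4.

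Of 28 growth factor and receptor genes, 11 were higher and 3 lower in both KO animals, with a median of 0.75. Igfbp7, a secreted IGF-binding protein, was at 460.1 (WT1), 294 (WT2), 747 (KO1) and 659.8 (KO2) CPM (0.90 ± 0.30). Angptl4, an inhibitor of lipoprotein lipase, was at 52.8 (WT1), 5.80 (WT2), 157 (KO1) and 263 (KO2) (2.84 ± 0.95), with WT2 far below WT1, and Ptn, the growth factor pleiotrophin, at 114 (WT1), 127 (WT2), 59.99 (KO1) and 48.5 (KO2) (-1.15 ± 0.39). Igf1 overlapped at 473 and 517 against 241 and 508. Igfbp7 is made by endothelial cells as well, at 524 and 928 plain CPM in endothelial-marker wells of WT and KO, and its difference was 1.02 in low-marker wells. Of 19 Wnt pathway genes, 6 were higher and 4 lower (median 0.49). The secreted Wnt antagonist gene Sfrp2 was at 51.7 (WT1), 35.02 (WT2), 12.1 (KO1) and 3.75 (KO2) (-2.46 ± 0.79), and Sfrp1 overlapped at 274 and 191 against 135 and 296. Lrp5, a Wnt coreceptor, was at 16.6 and 23.6 against 50.6 and 41.9 (1.20). Of 18 cell cycle genes, 7 were higher and 0 lower in both KO animals (median 0.26). Mcm6, a replicative helicase subunit, was at 31.9 (WT1), 31.3 (WT2), 81.3 (KO1) and 76.4 (KO2) (1.32 ± 0.43), and Ccnb2, a mitotic cyclin, at 10.6 (WT1), 21.5 (WT2), 37.3 (KO1) and 95.5 (KO2) (2.05 ± 0.68). Ccnb1, the related cyclin, was at 11.6 and 16.9 against 35.3 and 34.8 (1.30), but at -0.31 in low-marker wells. The largest single wells held 67.5% of the Ccnb2 UMIs and 44.4% of the Mcm6 UMIs, both in WT2. For Ccnb1 the largest single well held 47.6 (WT1), 62.6 (WT2), 70.6 (KO1) and 52.9 (KO2) percent of the animal's UMIs.

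The title of the series names a leukotriene receptor, and the 25 tested genes of leukotriene and prostanoid synthesis and sensing held 6 higher and 7 lower members in both KO animals, with a median of 0.35. Dpep1, a dipeptidase that converts leukotriene D4 to E4, was at 442 (WT1), 891 (WT2), 237 (KO1) and 167 (KO2) CPM (-1.72 ± 0.41), and Ggt5, the gamma-glutamyl transferase that converts leukotriene C4 to D4, at 25.3 (WT1), 54.2 (WT2), 15.4 (KO1) and 8.55 (KO2) (-1.73 ± 0.71). Both lay lower in both KO animals. Dpep2, another dipeptidase of leukotriene D4, lay higher in both, at 5.21 and 5.42 against 33.2 and 21.4 (2.36 ± 0.76), but its difference was -1.27 in low-marker wells. In macrophage-marker wells of WT and KO, Dpep2 was at 196 and 179 plain CPM. Dpep1 was detected in 84.2 and 86.9% of WT1 and WT2 wells and 59.2 and 70.5% of KO1 and KO2 wells. These shares were not thinned to equal depth, and the KO wells were shallower outside mitochondrial and haemoglobin genes. Alox5ap, the activating protein of 5-lipoxygenase, which starts leukotriene synthesis, was at 68.02 (WT1), 52.8 (WT2), 103 (KO1) and 180.2 (KO2) (1.23 ± 0.43), but macrophage-marker wells held 1281 and 1127 plain CPM of it in WT and KO. Macrophage markers in the fibroblast sums are given above, and their part in the Alox5ap difference was not tested; it was 0.57 in low-marker wells. Ptgis, prostacyclin synthase, lay slightly lower, at 234 (WT1), 235 (WT2), 227 (KO1) and 186 (KO2). Pla2g4a, the phospholipase that frees arachidonic acid, was at 94.7 (WT1), 101 (WT2), 72.3 (KO1) and 93.3 (KO2).

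**Figure D4:**
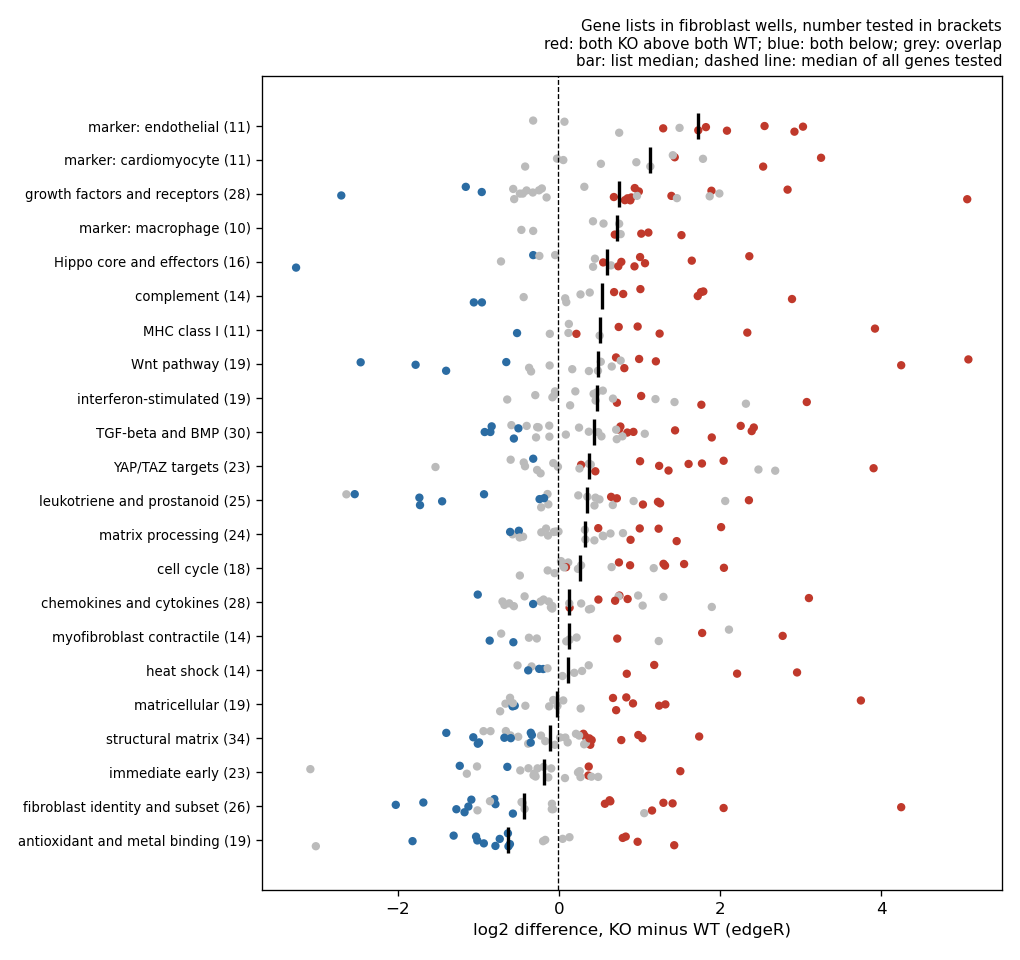
Log2 difference (KO minus WT, edgeR) of each tested gene in 19 gene lists and 3 marker sets of other cell types, with the number tested in brackets, the list median as a bar and the median of all genes (-0.01) as a dashed line. Antioxidant genes have the lowest median (-0.63) and the endothelial markers the highest (1.73); red and blue points are genes whose KO values lie all above or all below the WT values.

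Among all genes at 20 CPM or more with groups that did not overlap, those with the lowest unadjusted p were partly pseudogenes and partly genes of other cell types. On the higher side, Gm13341 was at 564 (WT1), 948 (WT2), 7893 (KO1) and 4453 (KO2) CPM (3.03 ± 0.38) and Gm13340 at 59.8 (WT1), 89.1 (WT2), 808 (KO1) and 547 (KO2) (3.19 ± 0.36). Both are annotated as unprocessed pseudogenes on chromosome 2 and resemble mitochondrial sequence, so their counts are uncertain. The mitochondrial share, 45.4 and 30.1% of UMIs in KO, moved with them, and its part was not tested. They were also higher in the other NCM wells, by 3.49 and 3.55. Gm4076, a processed pseudogene, was at 11.1 and 18.9 against 258 and 103. Endothelial genes made up another group. Itga6, an integrin subunit, was at 5.13 (WT1), 5.33 (WT2), 99.5 (KO1) and 48.7 (KO2) (3.82 ± 0.63), and Ctla2a, a protease inhibitor, at 50.4 (WT1), 69.1 (WT2), 451 (KO1) and 245 (KO2) (2.54 ± 0.42). Endothelial-marker wells of WT and KO held 274 and 316 plain CPM of Itga6, and 1271 and 1654 of Ctla2a.

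The endothelial marker list itself was higher in KO fibroblast wells, with 7 of 11 above both WT animals, 0 below and a median of 1.73. Cdh5, the junction protein VE-cadherin, was at 8.12 (WT1), 15.6 (WT2), 103 (KO1) and 77.3 (KO2) CPM (2.92 ± 0.56), and Esam, an endothelial adhesion molecule, at 5.86 (WT1), 13.1 (WT2), 102 (KO1) and 53.02 (KO2) (3.03 ± 0.66). In low-marker wells the median of the list was 0.43, and Itga6, Ctla2a, Cdh5 and Esam differed by 2.78, 1.65, 1.78 and 2.68. The limit that chose those wells counts these same 11 markers, Cdh5 and Esam among them. A smaller median of the list there therefore follows in part from the choice and is no separate check. Other genes of the higher side are known from immune and muscle cells. Ccl5, a T cell and platelet chemokine, was at 11.6 (WT1), 5.14 (WT2), 122 (KO1) and 95.1 (KO2) (3.69 ± 0.59). Xirp2, a muscle protein, was at 2.29 (WT1), 3.44 (WT2), 51.4 (KO1) and 43.6 (KO2) (4.05 ± 0.69), and Lyz1, a lysozyme gene with a near-identical copy, at 1.57 (WT1), 1.23 (WT2), 63.9 (KO1) and 24.3 (KO2) (4.97 ± 0.86). Macrophage-marker wells of WT and KO held 141 and 458 plain CPM of Ccl5, and 17.7 and 409.8 of Lyz1. In low-marker wells the differences of Ccl5, Xirp2 and Lyz1 were 3.27, 4.26 and 4.35, and the part of the macrophage and cardiomyocyte markers given above was not tested. Cables2 (5.32 ± 0.84) and Dlst (2.69 ± 0.45) had 82.8 and 53.1% of their KO2 UMIs in 1 well.

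On the lower side, 1 of the 12 places fell to the rule gene Lum, which is given above without a test, and 1 to Gpx3. Ackr4, an atypical receptor that takes up chemokines, was at 165 (WT1), 253 (WT2), 35.9 (KO1) and 44.2 (KO2) CPM (-2.38 ± 0.40). C1qtnf2, a secreted C1q-like protein, was at 201 (WT1), 176 (WT2), 53.1 (KO1) and 36.3 (KO2) (-2.08 ± 0.39), Lrrn4cl at 73.1 (WT1), 144 (WT2), 11.97 (KO1) and 7.30 (KO2) (-3.50 ± 0.59) and the membrane protein gene Itm2a at 371 (WT1), 387 (WT2), 126 (KO1) and 147 (KO2) (-1.47 ± 0.28). In each of these 4 genes both KO animals lay below both WT animals. The remaining places went to Vgll4, the unnamed gene ENSMUSG00000095406, the ribosomal pseudogenes Rpl14-ps1 (-1.55 ± 0.24), Rps13-ps1 (-1.57 ± 0.25) and Rps13-ps5, and Gm42418 (-0.84 ± 0.16), a non-coding RNA gene known to take up ribosomal RNA reads. Reads may be split between pseudogenes and their parent genes, so these counts are uncertain. In the other NCM wells, Rpl14-ps1 and Rps13-ps1 were lower as well, at -1.30 and -1.29, while Itm2a was at -0.01 and Gpx3 at -0.15.

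**Figure D5:**
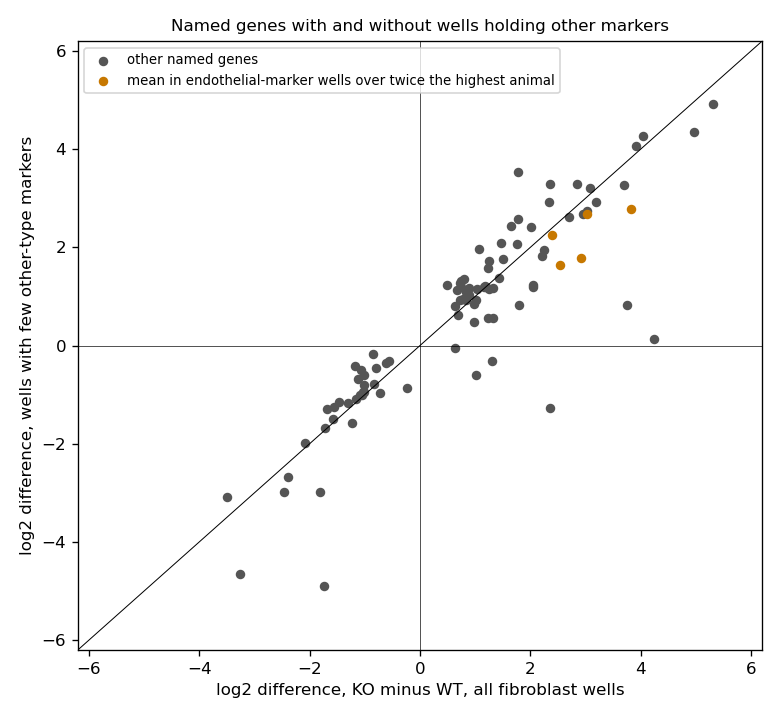
Log2 difference (KO minus WT) of the 96 genes whose difference is printed, in all fibroblast wells (horizontal) and in fibroblast wells with under 0.5% markers of other cell types (vertical), with a line of equality. Of the 96, 92 keep their sign and C4b, Ccnb1, Ddr2 and Dpep2 turn; orange marks the 5 genes whose mean level over WT and KO endothelial-marker wells was over 2 times the highest fibroblast sum (Id1, Itga6, Ctla2a, Cdh5 and Esam).

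Leaving out wells moved many of these 96 differences. In low-marker wells 4 turned, 18 were smaller by over 1.5 times (among them Alox5ap, Ccnb2, Cxcl1, Entpd2, Id3, Igfbp6, Mcm6, Mfap4 and Mt2) and 11 larger. In wells under 30% mitochondrial UMIs, with only 8 KO1 and 50 KO2 fibroblast wells, 5 turned (C4b, Cald1, Cxcl2, Nf2 and Wif1), 15 were smaller and 14 larger. Among the smaller were Xirp2 at 1.49, Ankrd1 at 0.74, Ctla2a at 0.96, Gstp1 at -0.35 and Ptn at -0.32. In wells under 1% haemoglobin UMIs 0 turned, 13 were smaller and 6 larger.

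Whether a genotype difference was particular to fibroblast wells was tested as an interaction between genotype and well class over 16452 genes, with the 4 animals as blocks. EdgeR called 0 genes at an adjusted p under 0.05 (0% of those tested), with 968 (5.88%) at an unadjusted p under 0.05, and no difference is therefore called particular to fibroblasts. DESeq2 was not run for the interaction. Without WT2 the count was 11, with no gene filter 88 and with the 5% share 1. Values of both classes are given side by side. Pi16 had a log2 difference of -1.68 in fibroblast wells and 0.47 in the other NCM wells, an interaction of -2.17 (unadjusted p = 0.00278, adjusted p = 0.766, edgeR). Ly6a had -1.09 and 0.43. Gpx3 had -1.31 and -0.15, with an interaction of -1.09 (unadjusted p = 0.00678, edgeR). Ccl2, higher in KO fibroblast wells, was lower in KO in the other wells, with 0.75 and -0.75, but 1 well held 50.4% of its KO1 fibroblast UMIs. For Mt1 (-1.03 and -0.88) and Ccn2 (1.24 and 1.20) the values are given without a test of likeness. The share of macrophage-marker wells among the other wells differed between animals, with 86, 84, 13 and 7 wells in WT1, WT2, KO1 and KO2, and their part in the values of the other wells was not tested.

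The same rule applied to the cardiomyocyte (CM) fraction found 30 wells, 8 in WT1, 10 in WT2, 9 in KO1 and 3 in KO2, under the 20 per animal required for a test. Cardiomyocyte markers took 3.31, 2.96, 1.47 and 2.77% of their UMIs outside mitochondrial and haemoglobin genes and fibroblast markers 3.05, 2.97, 3.80 and 2.36%, so these wells held both kinds of RNA. In plain CPM, Col3a1 was at 9272 (WT1), 8531 (WT2), 16164 (KO1) and 6885 (KO2). Lox was at 456 (WT1), 504 (WT2), 517 (KO1) and 866 (KO2). Plod2 had the opposite order to the NCM wells, with 55.0 (WT1), 152 (WT2), 51.8 (KO1) and 33.4 (KO2). Loxl2 overlapped, with 159 (WT1), 195 (WT2), 447 (KO1) and 106 (KO2). Serpinh1 overlapped too, with 452.5 (WT1), 253 (WT2), 429 (KO1) and 359 (KO2). Of these 4 genes, only Lox kept its order. Hspa1a was at 61.9 (WT1), 58.8 (WT2), 177 (KO1) and 168 (KO2). Hspa1a was again higher in both KO animals, while Pi16 overlapped at low levels, at 5.73 (WT1), 15.5 (WT2), 26.8 (KO1) and 3.85 (KO2). Gpx3 overlapped, at 463 (WT1), 637 (WT2), 324 (KO1) and 735 (KO2). A single KO1 well held 45.99% of the UMIs of that animal's sum.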

How the data were processed

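Single wells of 4 chips were sequenced from hearts of 2 WT and 2 KO mice. The authors deposited whole-number counts for each gene in each well, whose sums equalled the numbers of gene and UMI pairs that their well reports list. The submitters' processing notes name Subread 1.4.6-p1 with featureCounts, STAR 2.5.2b and the mm10 build. The strand setting was not given in the sources used here, nor was the annotation release. Animal and fraction came from the deposited reports. A total of 0 columns of per-sample values lacked a sample. Spike-in UMIs (4.98e-05% of all) were left out.

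Counts were summed over fibroblast wells per animal, without mitochondrial and haemoglobin genes, filtered with filterByExpr, and tested with edgeR 4.0.16 (TMM, quasi-likelihood F-test, all genes adjusted together by Benjamini-Hochberg); DESeq2 1.42.0, limma 3.58.1, library totals, other well filters, equal weights (pseudocount 1) and leaving out animals were alternatives. With 1 animal left out, the lone animal of its genotype is assumed to vary like the other pair. The interaction model used the sums of fibroblast and other wells. Scripts were tested on simulated data. The p-values measure the spread between 2 animals per genotype. Doublets were called per library with Scrublet (scanpy 1.11.5) and left in; Scrublet marked 5 fibroblast wells. Members and gene lists were chosen with earlier results of these data known. Named genes were the 11 rule genes, Stk4 and Stk3, the 12 with the lowest p in each direction at 20 CPM or more without overlap, the 4 of highest mean CPM and 4 of lowest p of each list, and the 30 leading genes of the class; not all are reported here. Meox1, Ddr2 and the heat shock genes named as overlapping besides Hspa8 were chosen after their values were seen. Gene positions follow GENCODE M21 (mm10).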

Additional observations from a re-analysis of the deposited data

How the results depend on the processing

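The count of 0 genes called between KO and WT by edgeR held under every alternative for fibroblast wells but 2: it was 368 with DESeq2 and 267 with no gene filter, and it stayed 0 without any 1 animal. The cause was not tested. For the interaction, edgeR called 0 genes, but 88 with no gene filter, 1 with a marker share of at least 5%, and 0 to 11 when 1 animal was left out, the 11 without WT2. The share of fibroblast wells, lower by 2.76 percentage points in KO, turned with a marker share of at least 1% (higher by 0.968 points), in wells under 30% mitochondrial UMIs (higher by 16.8) and in wells under 1% haemoglobin UMIs (higher by 3.99); it was -3.06 to -2.46 when 1 animal was left out. Of 1728 values of the 96 genes with a printed difference, 1632 kept direction and side of the threshold, 73 passed the threshold (37 with DESeq2, 36 with no gene filter) and 23 turned, in 19 genes. With the 5% share these were Ccn2 (-0.072), Id3 (0.077), Wwtr1 (-0.97), Ccl2 (-0.38), Ptn (0.00019), Alox5ap (-0.76), Ifit1 (-0.11), Myc (0.18), Dpep2 (-0.90), Meox1 (-0.13) and Ddr2 (-1.10). In low-marker wells they were C4b (-0.60), Dpep2 (-1.27), Ccnb1 (-0.31) and Ddr2 (-0.039), and in wells under 30% mitochondrial UMIs Wif1 (-3.85), Nf2 (-0.30), Cxcl2 (-0.36), C4b (-0.12) and Cald1 (0.012). Timp1 was at -0.23 with the 1% share, and Stk4 at 0.22 with equal weights and from -0.65 to 0.048 when 1 animal was left out, the last without KO2. Of 486 medians of 27 lists with 3 or more tested genes, 36 changed sign, in 14 lists. With the animal number as a replicate block the count was 0, with 1109 genes at an unadjusted p under 0.05 instead of 1316; the labels tie no animals together, and same-numbered animals did not deviate together (r = -0.00118), so the block pairs nothing. Alternatives for the CM fraction were not run, since no animal had 20 wells there. Depth limits the KO1 sum most, with 7154155 UMIs, of which 1 well held 9.60%.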

Other observations

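Single wells weighed heavily in these sums. In 7915 of the 13922 tested genes (56.9%), 1 well held over 50% of the UMIs of at least 1 animal. The share was 69.2% among the 604 genes higher in KO at an unadjusted p under 0.05 and 45.8% among the 712 lower genes. Among genes at 20 CPM or more it was 23.2% over all, 39.9% among the higher and 15.7% among the lower genes at that threshold. The genes that DESeq2 called held 74.6% such genes on the higher side and 62.5% on the lower side. Cables2 and Dlst, on the higher side, are of this kind in KO2, whereas Gpx3 and Ogn, on the lower side, had at most 16.8 and 12.01% of an animal's UMIs in 1 well.

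Of the 163 endothelial-marker wells in the NCM fraction, 19, 91, 48 and 5 came from WT1, WT2, KO1 and KO2, so a level in them is set mostly by WT2 and KO1.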
